A study of Oryctolagus cuniculus with 6 samples.

Results

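DNA repair genes of 3 connected pathways, namely homologous recombination, Fanconi crosslink repair and the damage checkpoint, were followed in injured and control rabbit trachea, together with a few genes of end joining and mismatch repair. The members were found by gene symbol. Each row of the deposited gene table whose symbol was on a list of 41 repair genes was a member. The matching used no measured value, but the list was chosen with earlier results of these data known. All 41 symbols had a row among the 29587 rows of the table, and all 41 members passed the filter on low counts that left 13724 genes for testing. Messenger RNA was captured by its polyA tail and sequenced from the tracheal mucosa of New Zealand rabbits, 3 months old, 3 libraries per group. In the high cuff pressure group, an injury model, a tracheal tube of 3.0 mm was placed at 13 cm and its cuff, the balloon that seals the airway, was kept inflated to 35 cmH2O over 2 h. How the control group was handled, and when tissue was collected in either group, is not given in the labels. The labels list the material as epithelial cells, but the protocol states tracheal mucosa, a tissue of mixed cell types, and place all libraries in 1 batch. Each library was counted as 1 replicate; the labels do not tie libraries to single animals, so the p-values speak only of spread among libraries, which may be technical.

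Homologous recombination rebuilds a broken chromosome from its sister copy. The MRE11-RAD50-NBN complex finds the break and activates the kinase ATM, nucleases trim the ends, and BRCA2 with its partners prepares the trimmed strand for the search for its match. The Fanconi pathway removes crosslinks between the strands of DNA: a core complex with the enzyme UBE2T attaches ubiquitin to the FANCD2-FANCI pair. ATR and CHEK1 hold the cell cycle while replication forks are stalled. Since a sister copy exists only after replication, many of these genes are transcribed mainly in S and G2 phase of dividing cells, while others, such as those of end joining, are transcribed at a similar level throughout. By textbook knowledge of this kind the members were put into a class of 20 S and G2 phase-linked genes and a class of 21 genes called constant here.

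Library totals ranged from 10501734 to 14415754 counts. High cuff pressure replicate 1 stood apart from the other libraries on the second principal component of all genes, which held 19.7% of the variance, while the first, with 52.6%, separated the groups. Markers of other cell types also differed. The neutrophil list summed to 1483 to 6812 CPM with high cuff pressure and to 6.95 to 422 CPM in controls. CPM are read counts scaled by library total and TMM factor. Of its 7 tested genes 6 were higher, with MMP8 listed at 0. S100A9, the tested gene of the list that did not pass (edgeR adjusted p = 0.119), held 846 to 4294 and 2.96 to 401 CPM of these sums. The macrophage list held 211 to 229 against 64.1 to 130 CPM, with 4 of 11 tested genes higher, and the B and plasma cell list 158 to 271 against 566 to 1293 CPM, with 2 of 7 lower. The fibroblast list had 2 of 10 genes lower and ranges that overlapped. The T cell, secretory and ciliated, smooth muscle and cartilage lists had 0 genes called by edgeR (2, 2, 0 and 1 at an unadjusted p under 0.05; 0, 2, 0 and 1 by DESeq2), and the endothelial list had 1 of 9 higher. General epithelial markers were present throughout, at 2188 to 2326 and 1575 to 1706 CPM, with 1 of 8 higher. In such bulk tissue, more cells of a type and more RNA per cell cannot be told apart.

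With high cuff pressure, several recombination and Fanconi genes of the S and G2 phase-linked class rose. In that class 12 of the 20 genes did not pass the test. In the class called constant, the break sensor gene NBN fell and 20 of the 21 genes did not pass. Of the 41 members, 8 rose: RAD54L, RAD51AP1, EXO1, BLM, FANCA, UBE2T, CLSPN and EME1. One member fell, NBN, and 32 did not pass (quasi-likelihood test in edgeR, threshold 0.05 on the Benjamini-Hochberg adjusted p over all tested genes). The 8 make up 19.5% of the members, beside 3.67% of all tested genes called higher, and the 1 lower gene makes up 2.44%, beside 1.62% called lower. The median log2 fold change of the members was 0.60, against -0.01 over all tested genes. Since the list was chosen with earlier results of these data known, these shares and medians are not independent of those results.

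All 8 members that rose belonged to the 20 S and G2 phase-linked genes, a share of 40%, and 0 of the 21 constant genes rose. The classes were assigned with earlier results of these data known, so this split is not independent of them. Read at an unadjusted p under 0.05, the constant class had 4 genes higher and 4 lower. The S and G2 phase-linked class had 13 higher and 0 lower, and all 13724 tested genes had 2144 higher and 1871 lower. DESeq2 called 2 constant and 12 S and G2 phase-linked genes higher, beside 10.6% of all tested genes. It called the constant genes RAD50, MRE11A and NBN lower, beside 8.53% of all tested genes. The median log2 fold change was 1.85 in the S and G2 phase-linked class and 0.16 in the constant class. With libraries scaled to total counts only, which lowered the median of all tested genes by 0.395 on the log2 scale, these medians became 1.44 and -0.23. Against the median of all genes under the same scaling, they stood at 1.85 and 0.17, beside 1.86 and 0.17 with TMM factors. Complete separation of the 3 libraries of each group was seen upward in 17 members, where 18.6% of all tested genes were so separated, and downward in 3, where 18.7% were. The S and G2 phase-linked class held 13 of the 17 members separated upward, and the constant class held 4 of them and all 3 separated downward.

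**Figure D1:**
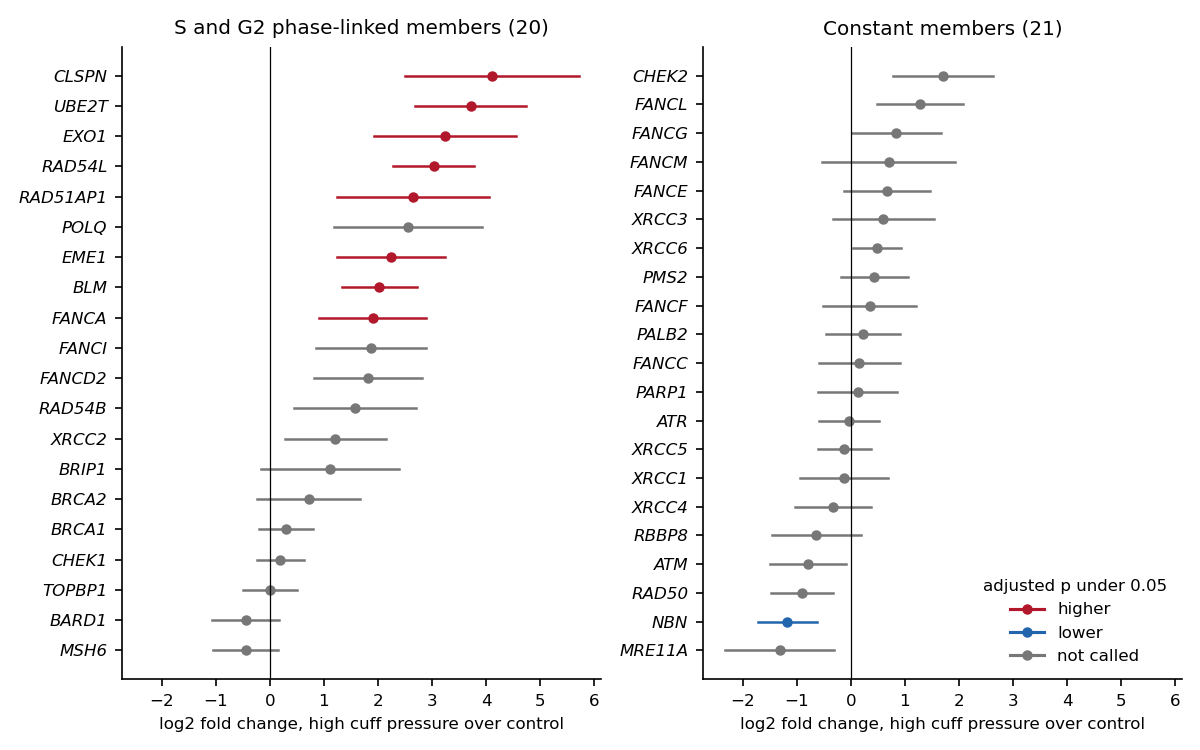
Log2 fold change of each member, high cuff pressure minus control, with its 95% interval from the edgeR quasi-likelihood fit, the S and G2 phase-linked class and the constant class apart. The 8 members that rose all lie in the first class, up to 4.11 for CLSPN, and NBN, at -1.17, is the only member that fell.

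Among the strand exchange genes, RAD54L gave the smallest p of all members. RAD54L (ENSOCUG00000005229, chromosome 13 from 120264767 to 120292492, minus strand, build not given in the sources used here) encodes a motor protein that helps to open the intact duplex. Its level was 18.5, 31.8 and 32.96 CPM in high cuff pressure replicates 1, 2 and 3, and 3.42, 3.09 and 3.64 CPM in control replicates 1, 2 and 3. The lowest injured library thus lay well above the highest control, and the control libraries lay close together. RAD54L rose 8.19-fold (95% interval 4.89 to 13.7), a log2 fold change of 3.03 ± 0.32 (SE, n = 3 per group; edgeR adjusted p = 0.0142).

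RAD51AP1 (chromosome 8 from 30631077 to 30650301, plus strand), which encodes a protein that stimulates strand exchange, held 1.68, 3.53 and 5.15 CPM in the injured libraries and 0.342, 0.901 and 0.364 CPM in the controls. The groups did not overlap, at a low level. It rose by 2.65 ± 0.61 on the log2 scale (edgeR adjusted p = 0.0491), near the threshold, and by 3.25 without control replicate 2. The call held in 6 of 17 alternative fits. Among others, it was lost by edgeR with total counts only (adjusted p = 0.0536) and the replicate block (adjusted p = 0.0873), and with limma-voom (adjusted p = 0.0541). RAD54B, a relative of RAD54L, was at 5.08 to 5.52 CPM against 0.94 to 3.02 CPM and missed the threshold (log2 fold change 1.58 ± 0.49, edgeR adjusted p = 0.0869; 2.26 without control replicate 2). XRCC2, which acts in strand exchange, was at 2.17 to 3.88 against 1.196 to 1.53 CPM and also missed it (1.22 ± 0.41, adjusted p = 0.101).

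The BRCA genes themselves were a different case. BRCA1, a ubiquitin ligase that directs breaks to recombination, was at 69.2, 99.9 and 96.1 CPM with high cuff pressure and at 67.6, 79.7 and 67.9 CPM in controls. The groups overlapped, and the interval of its log2 fold change of 0.30 ran from -0.21 to 0.81 (edgeR adjusted p = 0.384); with total counts only the value was -0.10. BRCA2, a central mediator of recombination, was at 6.90, 7.77 and 15.3 CPM against 5.47, 4.70 and 8.09 CPM. Only 1 injured library stood above all controls, and the interval around 0.72 ran from -0.23 to 1.67 (edgeR adjusted p = 0.277). PALB2, which joins BRCA1 to BRCA2, BARD1, the partner of BRCA1, and XRCC3, a further strand exchange factor, had log2 fold changes of 0.22, -0.44 and 0.60 and overlapping groups.

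**Figure D2:**
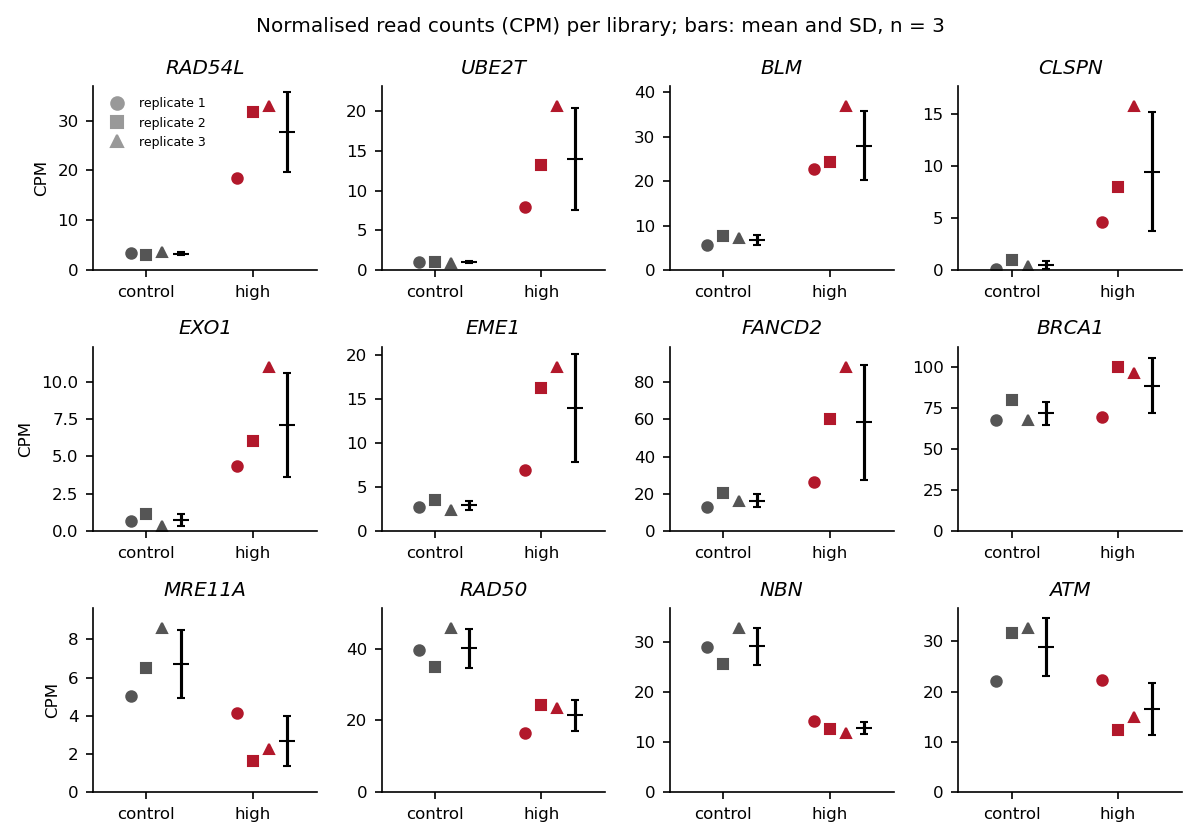
Level in CPM of 12 members in each library (linear axes from 0), with the replicates of each group as points and the mean with its SD as a bar (n = 3). RAD54L and UBE2T are separated by a wide gap, from 18.5 and 7.98 CPM in the lowest injured library to 3.64 and 1.11 CPM in the highest control, while NBN lies lower in all 3 injured libraries.

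Break sensing and end trimming held genes that moved in opposite directions. NBN (ENSOCUG00000009935, chromosome 3 from 105386381 to 105435466, minus strand) encodes the subunit of the sensing complex that recruits ATM. Its level was 14.3, 12.6 and 11.97 CPM with high cuff pressure and 29.1, 25.7 and 32.9 CPM in controls. All injured libraries lay below all controls with little spread within either group. NBN fell by 1.17 ± 0.24 on the log2 scale, so that controls held 2.26 times the injured level (edgeR adjusted p = 0.0366).

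The partners of NBN were lower as well but did not pass the test. RAD50, which tethers the broken ends, was at 16.6, 24.4 and 23.4 CPM against 39.6, 34.9 and 45.8 CPM, without overlap (log2 fold change -0.90 ± 0.25, edgeR adjusted p = 0.0698). MRE11A, the nuclease of the complex, was at 4.14, 1.65 and 2.27 CPM against 5.04, 6.50 and 8.60 CPM, again without overlap (-1.32 ± 0.44, adjusted p = 0.102). ATM, the kinase that the complex activates, was at 22.4, 12.5 and 14.9 CPM against 22.2, 31.7 and 32.7 CPM. Its groups overlapped through high cuff pressure replicate 1, which reached the level of control replicate 1 (-0.80 ± 0.30, edgeR adjusted p = 0.132). DESeq2 called all 3 genes of the complex lower and did not call ATM. RBBP8, which encodes CtIP, the starter of end trimming, had a log2 fold change of -0.63 and overlapping groups; a row of 41239 counts without a symbol lies across it on the opposite strand.

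The long-range trimming genes went the other way. BLM (on a scaffold, plus strand), the helicase that unwinds ends and dissolves joined strands, was at 22.7, 24.4 and 36.9 CPM against 5.64, 7.66 and 7.29 CPM. The groups were far apart, and BLM rose 4.07-fold (log2 fold change 2.03 ± 0.30, edgeR adjusted p = 0.0196). EXO1 (chromosome 16 from 31779837 to 31813106, plus strand), an exonuclease of end trimming and mismatch repair, was at 4.34, 6.002 and 10.985 CPM against 0.684, 1.16 and 0.364 CPM. All injured libraries lay above all controls, which rest on 8, 18 and 5 counts. EXO1 rose by 3.25 ± 0.57 on the log2 scale (edgeR adjusted p = 0.0316).

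In the Fanconi pathway all 11 members had positive log2 fold changes, from 0.16 to 3.72 with a median of 1.11, and 2 rose; with total counts only FANCC and FANCF turned negative, at -0.23 and -0.05. UBE2T (ENSOCUG00000010249, chromosome 16 from 69344355 to 69347664, plus strand) encodes the enzyme that passes ubiquitin to the FANCD2-FANCI pair. It was at 7.98, 13.2 and 20.6 CPM with high cuff pressure and at 1.11, 1.09 and 0.948 CPM in controls. The controls, which rest on 13, 17 and 13 counts, were nearly alike, the injured libraries spread widely, and the groups were far apart. UBE2T rose 13.2-fold, a log2 fold change of 3.72 ± 0.45 (edgeR adjusted p = 0.0171).

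FANCA, a subunit of the core complex, was at 10.8, 12.2 and 22.4 CPM against 5.38, 4.31 and 2.48 CPM. Its groups did not overlap, and it rose 3.75-fold (log2 fold change 1.91 ± 0.43, edgeR adjusted p = 0.0479). This call held in 7 of 17 alternative fits. Among others, it was lost by edgeR with total counts only (adjusted p = 0.0536) and the replicate block (adjusted p = 0.124), and on log2(FPKM + 1) by limma (adjusted p = 0.0821). FANCA shares its locus with ZNF276 on the opposite strand, whose log2 fold change was 0.94 (edgeR adjusted p = 0.0956); the strand setting of the counting is not known, so reads of such pairs may not have been told apart.

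The substrates of UBE2T just missed the threshold. FANCD2 was at 26.4, 60.3 and 87.96 CPM against 13.0, 20.4 and 16.1 CPM (log2 fold change 1.82 ± 0.43, edgeR adjusted p = 0.0529). FANCI was at 12.03, 25.8 and 38.8 CPM against 5.64, 8.43 and 6.78 CPM (1.88 ± 0.44, adjusted p = 0.0507). In both genes every injured library was above every control, but replicate 1 lay far below replicate 3. FANCL, the ubiquitin ligase of the core complex and the most separated gene of the remaining core, was at 5.52, 8.47 and 10.1 CPM against 3.50, 3.09 and 3.28 CPM (1.29 ± 0.35, edgeR adjusted p = 0.0654). The other core genes FANCC, FANCE, FANCF and FANCG, and the helicases FANCM and BRIP1, ran from 0.16 to 1.11, and 1 of these 6, FANCE, had groups without overlap.

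Among the checkpoint genes, CLSPN rose, while the groups overlapped in the kinases ATR and CHEK1. CLSPN (on a scaffold, plus strand) encodes claspin, the adaptor through which ATR activates CHEK1. Its level was 4.63, 8.002 and 15.8 CPM against 0.171, 0.965 and 0.437 CPM, from 47, 68 and 208 against 2, 15 and 6 counts. The groups lay far apart but each spread severalfold. CLSPN rose by 4.11 ± 0.70 on the log2 scale (edgeR adjusted p = 0.0288), with 3.52 when injured replicate 3 was left out and 4.89 when control replicate 2 was.

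CHEK1, the replication checkpoint kinase, was at 104, 88.8 and 111 CPM against 89.3, 88.9 and 86.7 CPM. Its lowest injured library fell within the control range, and the interval of its log2 fold change of 0.20 ran from -0.24 to 0.63; with total counts only the value was -0.19. ATR, the kinase above it, was at 17.6, 20.6 and 25.9 CPM against 21.2, 21.4 and 22.96 CPM, and its log2 fold change of -0.03 had an interval from -0.59 to 0.53. TOPBP1, the activator of ATR, had 0.00 with an interval from -0.50 to 0.51. CHEK2, the kinase under ATM, was at 5.13, 8.59 and 12.05 CPM against 2.39, 2.57 and 2.92 CPM, with no overlap (1.71 ± 0.40, edgeR adjusted p = 0.0502). It had the highest log2 fold change of the constant class.

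**Figure D3:**
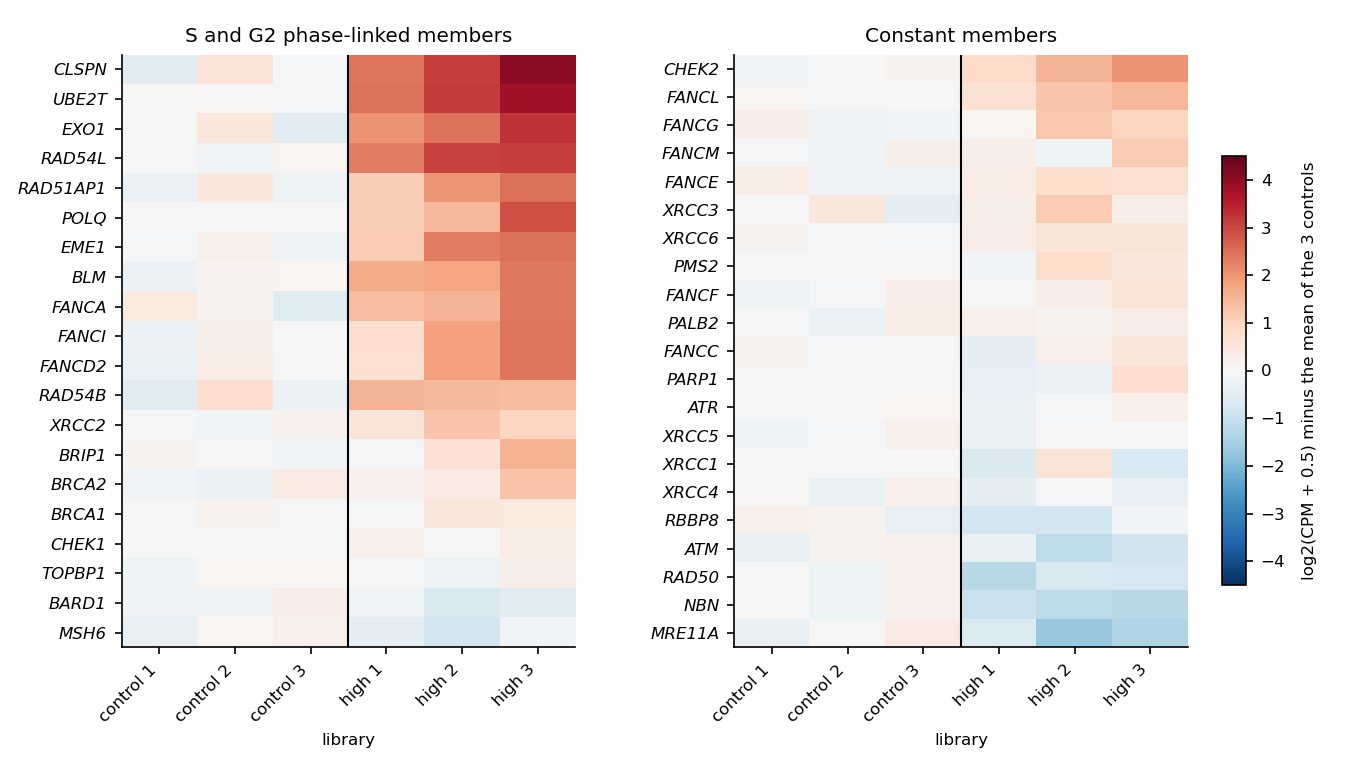
Level of each of the 41 members in each of the 6 libraries, relative to the mean of the control libraries, as log2(CPM + 0.5), ordered by log2 fold change within each class; red is above and blue below the controls. The S and G2 phase-linked members have means of 0.94, 1.36 and 1.86 in high cuff pressure replicates 1, 2 and 3, while NBN, RAD50 and MRE11A lie below the controls in all 3.

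The abundant end joining and strand break repair genes did not pass the test. XRCC6 encodes Ku70, which binds broken ends: it was at 74.8, 89.0 and 88.6 CPM against 64.9, 58.6 and 57.1 CPM, with no overlap (log2 fold change 0.48 ± 0.19, edgeR adjusted p = 0.144). XRCC5, its Ku80 partner, was at 40.7, 49.0 and 48.6 CPM against 43.5, 48.1 and 58.3 CPM, with an interval of -0.61 to 0.38 around -0.12. So the 2 subunits of Ku differed in whether their groups overlapped, and neither passed the test.

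XRCC1, the scaffold of single-strand break repair, was at 61.8, 145 and 60.2 CPM against 97.2, 94.2 and 98.2 CPM. High cuff pressure replicate 2 lay above all controls and the other two below them, so the interval around -0.12 was wide, from -0.94 to 0.70. PARP1, the sensor of strand breaks, had 64.3, 68.8 and 140 CPM against 87.5, 83.5 and 79.4 CPM. Here replicate 3 alone stood above the controls, and the interval around 0.13 ran from -0.61 to 0.86. XRCC4, the partner of DNA ligase IV, had a log2 fold change of -0.33.

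Larger differences were found in the low-abundance members of this role. EME1 (chromosome 19 from 37332795 to 37339766, minus strand), the partner of MUS81 in cutting joined strands, was at 6.999, 16.2 and 18.6 CPM against 2.82, 3.54 and 2.48 CPM. The groups did not overlap, and EME1 rose 4.72-fold (log2 fold change 2.24 ± 0.43, edgeR adjusted p = 0.0341). POLQ, the polymerase of the alternative end joining route, was at 2.37, 3.18 and 9.09 CPM against 0.855, 0.837 and 0.802 CPM (2.55 ± 0.59, edgeR adjusted p = 0.0501). Its controls were nearly alike, and replicate 3 lay far above the other injured libraries; without it the log2 fold change was 1.73.

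For mismatch repair, MSH6, which recognises mispaired bases, was at 57.4, 43.3 and 69.5 CPM against 60.3, 82.0 and 90.1 CPM. PMS2, the nicking subunit, was at 34.6, 66.6 and 53.3 CPM against 37.2, 37.5 and 39.5 CPM. Both had overlapping groups, with log2 fold changes of -0.45 and 0.44, and an unnamed row of 5212 counts lies on the same strand as PMS2, which had 3180 counts.

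Levels between genes were compared on the authors' FPKM, which are per length. In controls the highest members were XRCC6 at 32.3 ± 0.98 FPKM (SD, n = 3), XRCC1 at 31.97 ± 2.71 and PARP1 at 28.6 ± 1.64 FPKM, all of the constant class; XRCC6 and XRCC1 lay closer than the spread between libraries. CHEK1 followed at 20.1 ± 1.63 FPKM and MSH6 at 19.3 ± 5.24. The lowest were POLQ, CLSPN and FANCM at 0.0864, 0.155 and 0.219 FPKM. With high cuff pressure, UBE2T moved from rank 24 to rank 4 of the 41, from 1.83 ± 0.162 to 18.6 ± 9.15 FPKM. RAD54L moved from rank 30 to 11, at 1.46 ± 0.167 and 9.09 ± 2.62 FPKM. In the other direction, NBN moved from rank 11 to 22, MRE11A from 20 to 37 and ATM from 17 to 35. These FPKM are scaled to total counts, so an injured level is lower on this scale than with TMM factors.

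The 3 injured libraries kept the same order in most S and G2 phase-linked members. The 8 members that rose summed to 77.7, 115 and 163 CPM in high cuff pressure replicates 1, 2 and 3, and to 19.6, 22.7 and 18.003 CPM in controls. Within the injured group replicate 3 was the highest in 16 and replicate 1 the lowest in 15 of the 20 genes of the class. A list of 16 tested proliferation markers, other genes of dividing cells, had the same order, at 469, 889 and 1537 CPM against 129, 147 and 157 CPM in controls, and 15 of the 16 rose. MKI67, the usual label of dividing cells, was at 59.8, 36.1 and 85.6 CPM against 7.01, 9.20 and 8.31 CPM, which is not that order; it rose by 2.89 ± 0.35 on the log2 scale (edgeR adjusted p = 0.0171). Basal epithelial markers summed to 769, 1452 and 3343 CPM in injured replicates 1, 2 and 3 and to 369 to 704 CPM in controls. By edgeR 0 of 8 passed the threshold, with 2 by DESeq2 and 4 at an unadjusted p under 0.05. In the injured libraries the sum was mostly KRT5 (387.5, 945 and 2374 CPM). KRT5, NGFR, ITGB4, LAMB3 and COL17A1 had this order of injured replicates, while TP63, ITGA6 and DLK2 did not. The order was shared by the sums of the smooth muscle list (473, 4080 and 7024 CPM), the fibroblast list (315, 1203 and 1725 CPM) and the endothelial list (504, 1050 and 1134 CPM). It was thus not particular to dividing or basal cells. The secretory and ciliated sum (4008, 24237 and 27969 CPM) had it too, but was mostly BPIFA1 (1687, 19574 and 18790 CPM) and BPIFB1 (1104, 2598.5 and 8524 CPM). The ciliary genes FOXJ1, DNAI1, DNAH5 and CCDC39 of that list were lowest in injured replicate 3, with DNAH5 at 408, 201 and 109 CPM. The neutrophil sum ran the opposite way, at 6812, 3615 and 1483 CPM. The constant members summed to 416, 590 and 571 CPM against 505 to 540 CPM, a range that holds all controls. Within the injured group replicate 1 was the lowest in 15 of these 21 genes too, and replicate 3 the highest in 9. A low replicate 1 was thus not particular to the S and G2 phase-linked class. Such counts were not made over all tested genes. The part of cell division or cell makeup in the members' differences was not tested.

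**Figure D4:**
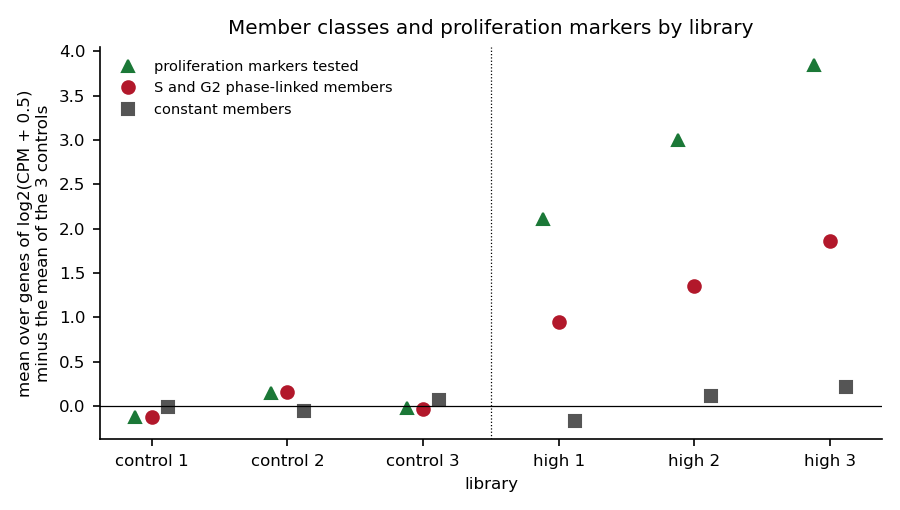
Mean of log2(CPM + 0.5) minus the control mean in each library, over the 20 S and G2 phase-linked members, the 21 constant members and the 16 tested proliferation markers. Injured replicate 1 is the lowest and replicate 3 the highest injured library in all 3 sets, from 0.94 to 1.86, from -0.17 to 0.22 and from 2.11 to 3.85.

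Other repair genes outside the 41 members were read for the same pathways. Of 121 such genes, 101 were tested. Of these, 12 rose and 3 fell, with a median log2 fold change of 0.27. Beside these counts and those of the single lists, 3.67% of all tested genes were called higher and 1.62% lower. In the recombination list 4 of 29 tested genes rose and 0 fell, among them the recombination factor FIGNL1 (log2 fold change 2.10), the end-trimming nuclease DNA2 (2.51) and HROB, the loader of a repair helicase (4.39). In the Fanconi and crosslink list 1 of 12 rose, CENPS (3.14), a partner of FANCM. The polymerase REV1 and the catalytic subunit REV3L of the bypass polymerase that it recruits fell, by 1.02 and 1.34 on the log2 scale (edgeR adjusted p = 0.0360 for both). REV1 was at 48.7 to 65.8 CPM against 107 to 120 CPM, and REV3L at 23.4 to 35.8 against 58.9 to 88.9 CPM.

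Of 20 tested genes of damage signalling and checkpoint, 5 rose and 0 fell. These were H2AFX, the histone marked at breaks (2.46), TIMELESS, which keeps forks together (2.10), the phosphatases CDC25A (2.40) and CDC25C (4.86) that start S phase and mitosis, and PKMYT1, a kinase that restrains mitosis (3.77). In base and single-strand break repair, LIG1, the ligase of replication, rose by 2.20 and NEIL3 was called higher from a control level near 0 (2 of 3 control libraries at 0), so no fold is given; the other 14 did not pass. By edgeR 0 of 8 further end joining genes and 0 of 11 nucleotide excision repair genes passed, with 3 and 0 at an unadjusted p under 0.05, 2 and 0 by DESeq2, and medians of -0.29 and -0.04.

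Among the 8 members that rose, EXO1 and UBE2T lie on chromosome 16, and BLM, FANCA and CLSPN lie on scaffolds with no chromosome given, as do 12 of the 41 members in all. FANCI and BLM lie 943 kb apart on 1 scaffold, and BARD1 and XRCC5 lie 1368 kb apart on chromosome 7. Locus overlap touched 16 members, among them RAD54L, whose opposite-strand neighbour LRRC41 had a log2 fold change of 0.20 (edgeR adjusted p = 0.495). Gene length bore weakly on the fold changes of all tested genes (Spearman rho -0.17 across genes, which are not independent), with medians from 0.22 in the shortest to -0.16 in the longest of 5 equal bins. Among the members this length scale ran from 658 bases for UBE2T to 11017 for POLQ. With the length trend removed, an alternative chosen after seeing the data, 11 members were higher and NBN was the 1 lower. RAD51AP1 was not among the 11 (edgeR adjusted p = 0.0505). That fit called 4.12% of all tested genes higher and 1.57% lower.

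The calls depended on single libraries, the directions less so. All 8 members that rose kept a positive value, and NBN a negative one, under all 17 alternatives. Without high cuff pressure replicate 2, control replicate 2 or control replicate 3, 0 members passed by edgeR, where the whole table kept at most 4 calls. At an unadjusted p under 0.05, these fits had 14, 14 and 15 members higher and 4, 3 and 2 lower. In either direction, 3081 of 14051, 2691 of 13993 and 2496 of 13974 tested genes passed that unadjusted threshold. Without control replicate 1, RAD54L and UBE2T were still called. When injured replicate 3 was left out, RAD54L, BLM and UBE2T were. Without high cuff pressure replicate 1, the library that stood apart, 14 members were higher and 3 lower. In that fit 9.68% of all tested genes were called higher and 8.97% lower. In the authors' deposited table, 12 members are marked up, among them the 8 called here, and NBN is the only one marked down. That table compares the same groups of libraries, so its marks are not independent of the calls here. The share of all its 19001 rows that is marked was not counted.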

How the data were processed

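Tracheal mucosa was sequenced as 6 polyA libraries, 3 per group, grouped and numbered by their titles; the library used as control replicate 3 is titled S4. The deposited gene table holds, per the file headers, raw read counts per gene and FPKM by the authors. Each deposited FPKM is a count divided by a gene length and the library total. A second deposited table holds the authors' p-value and q-value per gene, of which only the q-value with the mark of direction was read. Per the submitters' processing notes, the tools were StringTie 1.3.3b, HISAT2 2.0.4 and edgeR, with no roles stated; the genome build, the annotation, the strand setting and the options of the counter were not given in the sources used here.

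Raw counts entered edgeR 4.0.16 (R 4.3.3): filterByExpr (minimum count 10) on the groups, TMM factors, glmQLFit with robust estimation and glmQLFTest, and Benjamini-Hochberg adjustment over 13724 genes at 0.05. CPM are TMM-normalised, and the SE is the absolute log2 fold change over the root of its F statistic. Intervals are at 95% and cover the spread between libraries. Chi-square per degree of freedom between libraries of a group was 56.1 to 137, above sampling noise for every pair, so none was counted as a repeat. Only the main edgeR fit, and none of the alternatives, was tested on simulated data. The members, classes, lists and rules were chosen with earlier results of these data known. The rule gave full values for up to 12 members past the threshold, of which there were 9, and the 6 constant members with the highest mean FPKM; every other member is given by value or range, and other list genes past the threshold by name. List entries were matched by symbol, 6 of them through an older symbol. The species' RefSeq gene table matched 0 of the gene identifiers, so positions come from the deposited table, in which 13436 rows have no symbol.

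The alternatives changed the tool (DESeq2 1.42.0, or voom in limma 3.58.1), the scaling (RLE factors, or total counts only), the filter (none, or 1 CPM reached by 3 libraries), added the replicate number as a block, or left out each library. Others used limma on log2(FPKM + 1), keeping genes that reached 1 FPKM in 3 libraries, with a pseudocount of 0.1 instead, or with no filter. Removal of the trend over gene length was chosen after seeing the data. FPKM are not counts, and fold changes on the log2(FPKM + 1) scale understate the change of low genes. Deposited enrichment tables were not used here, and some genes of the lists are not reported here.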

Additional observations from a re-analysis of the deposited data

How the results depend on the processing

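The directions of the members that rose and of NBN held under all 17 alternatives; which of them passed depended on the test and on single libraries. Where the main analysis called 8 members higher (all S and G2 phase-linked, 0 constant) and 1 lower, and 503 genes higher and 222 lower, DESeq2 called 14 and 3 members (2 constant members higher) and 1461 and 1170 genes. RLE factors, the filter of 1 CPM and the removed length trend, chosen after seeing the data, each called 1 constant member higher. Total counts only called 6 members higher (FANCA and RAD51AP1 lost), with 2 members and 1241 genes lower; log2(FPKM + 1) called 7 higher (FANCA lost), with 3 and 1745 lower, and log2(FPKM + 0.1) 6 higher (both lost), with 2 and 1446 lower; without a filter on FPKM, 2 members, both S and G2 phase-linked, and 114 genes were higher. Of the genes called, 69.4% were higher, against 23.9% with total counts only. Same-numbered libraries of the 2 groups did not deviate together (correlations -0.277, -0.201 and -0.234, against -0.141 to 0.332 for differently numbered ones). Deviations from a mean of 3 libraries are tied to each other, so these values cannot exclude that the numbers pair them. With the replicate block, 4 members, all S and G2 phase-linked, were higher and 0 lower (14 and 3 at an unadjusted p under 0.05), with 198 and 46 genes. In that fit 2848 of 13724 tested genes passed the unadjusted threshold in either direction. Leaving out 1 library at a time gave 0 to 14 members higher, 0 to 3 lower, 0 to 11 S and G2 phase-linked and 0 to 3 constant members higher, with 0 to 1362 genes higher and 0 to 1261 lower; each fit then has 2 libraries in 1 group.

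The members that changed sign did not pass the test before or after the change. With total counts only the log2 fold changes were -0.10 for BRCA1, -0.17 for PALB2, -0.23 for FANCC, -0.049 for FANCF, -0.19 for CHEK1, -0.39 for TOPBP1 and -0.25 for PARP1. With log2(FPKM + 1), with or without the filter, they were -0.096, -0.097, -0.20, -0.032, -0.19, -0.36 and -0.34 in that order, and -0.0050 for PMS2. With log2(FPKM + 0.1) they were -0.11, -0.14, -0.28, -0.038, -0.20, -0.39 and -0.36, and -0.0080 for PMS2. TOPBP1 was at -0.011 with no filter and at -0.0028 with the replicate block. With the length trend removed ATR was at 0.23 and XRCC1 at 0.028. With 1 library left out the ranges were -0.19 to 0.097 for ATR, -0.66 to 0.10 for XRCC1, -0.084 to 0.40 for FANCC, -0.14 to 0.11 for TOPBP1, -0.32 to 0.33 for PARP1 and -0.20 to 0.0069 for XRCC5. Over all genes named, 741 of 973 values kept their direction and call, 154 lost it, 33 gained it and 45 changed sign. The cause of these changes was not tested. Depth limits CLSPN, EXO1, RAD51AP1, POLQ and UBE2T, which have few control counts.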
